A study of Mus musculus with 3 samples.

Results

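The mature arms of miR-341, miR-370 and miR-1188 were followed through the 3 small RNA libraries of TAG1 cells. They were found by name, as every listed arm of these 3 hairpins, and 5 of the 693 listed miRNAs qualified: miR-341-3p, miR-341-5p, miR-1188-5p, miR-370-3p and miR-370-5p. The sixth arm, miR-1188-3p, was not listed in any library. TAG1 is a single line of mouse ES cells, derived from J1 cells, in which doxycycline (Dox) switches on Alk4*, a constitutively active type I receptor that phosphorylates Smad2/3. Control cells were untreated and grown with foetal bovine serum. SB cells spent 16 hrs with 30 µM of an inhibitor of the type I receptors, which the labels name SB-431541 and the methods SB-431542. Dox cells had those 16 hrs of SB and afterwards 1 µg/µl Dox over 12 hrs. Both treated cultures were in serum replacement, and all media held LIF. Medium and treatment therefore cannot be told apart in comparisons with Control, and the Dox cells were also in culture for longer than the SB cells.

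miRNAs are cut from long primary transcripts as hairpins by Drosha and then by Dicer into a duplex of 2 arms, one of which is usually kept in the silencing complex while the other is degraded. The seed, bases 2 to 8 of the mature miRNA, leads in the recognition of targets. Rian is a long non-coding RNA of the imprinted Dlk1-Dio3 region, made from the maternal chromosome together with Meg3, the transcript antisense to Rtl1, and Mirg. It is a host of small nucleolar RNAs and miRNAs within its introns, and a larger group of miRNAs at and around Mirg lies downstream of it.

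On GRCm38 the 3 hairpins lie on the + strand of chromosome 12 within Rian, which spans 109603940 to 109661716. The hairpin of miR-341 (109611500 to 109611595) and that of miR-1188 (109611822 to 109611941) are 226 bases apart in the same intron, between 109606342 and 109617210. The hairpin of miR-370 (109618258 to 109618336) follows 6316 bases further on, in an intron from 109617350 to 109620312. Of the 20 Rian transcripts annotated by GENCODE, 2 span the hairpins, and all 3 hairpins were intronic in both. Mirg starts 111427 bases beyond the miR-370 hairpin.

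The hairpins from RefSeq (build GRCm38.p6) are shown with the annotated mature arms in capitals, the 5p arm first, since the comparisons below turn on which arm was counted.
Mir341: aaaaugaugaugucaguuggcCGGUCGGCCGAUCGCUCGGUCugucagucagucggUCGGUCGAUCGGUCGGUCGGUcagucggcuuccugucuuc
Mir1188: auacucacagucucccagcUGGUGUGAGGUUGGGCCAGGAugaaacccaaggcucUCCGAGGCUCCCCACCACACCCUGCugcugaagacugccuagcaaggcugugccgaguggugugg
Mir370: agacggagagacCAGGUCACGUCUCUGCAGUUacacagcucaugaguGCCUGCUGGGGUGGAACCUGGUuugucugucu
The 3 hairpins are 96, 120 and 79 bases long in this order, and between 14 and 15 bases separate the arms in each. Their predicted folding energies (RNAfold) were −42.0, −42.2 and −41.3 kcal/mol.

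The mature sequences follow with the seed in capitals, because shared seeds would put members in one family.
miR-341-3p: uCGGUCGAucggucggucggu
miR-341-5p: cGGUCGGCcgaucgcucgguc
miR-1188-5p: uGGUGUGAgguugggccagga
miR-1188-3p: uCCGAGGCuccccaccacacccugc
miR-370-3p: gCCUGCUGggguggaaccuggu
miR-370-5p: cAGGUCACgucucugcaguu
On the + strand of GRCm38.p6 the listed arms are at chr12:109611556-109611576 (miR-341-3p), chr12:109611521-109611541 (miR-341-5p), chr12:109611841-109611861 (miR-1188-5p), chr12:109618305-109618326 (miR-370-3p) and chr12:109618270-109618289 (miR-370-5p). No seed was shared between these arms. Among the 516 listed miRNAs with a sequence in the RefSeq table, miR-1193-3p was the only other with one of these seeds, that of miR-370-5p (miR-1193-3p: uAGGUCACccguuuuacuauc). miR-1193 belongs to the downstream part of the same predicted primary transcript. miR-341-3p is built from repeats of CGGU, which occurs 4 times in it and 7 times in its hairpin, counted on the RNA strand. CGGU occurs in 11.9% of the 1005 mouse hairpins of the table, and the next highest number in any of them was 3. It occurs in 3.87% of the 1679 mature sequences. Despite these repeats, no stretch of 17 bases, the shortest read that was mapped, occurs more than once in any of the 3 hairpins or in another hairpin of the table.

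By median the members are richer in G and C than the other miRNAs of the region, whose ranges overlap theirs. GC content of the 5 listed arms ran from 55.0% in miR-370-5p to 76.2% in miR-341-5p, with a median of 66.7%. The median was 47.6% in the rest of the predicted primary transcript that begins with miR-341 (59 of 67 listed miRNAs with a sequence), 52.3% in the 10 Rtl1-antisense miRNAs and 58.4% in the 12 miRNAs on the Meg3 side. The highest values in these lists were 77.3%, 59.1% and 72.7%. Across 64 miRNAs of the predicted transcript, members included, GC content had a Pearson correlation of −0.18 with the log2 ratio of SB over Control and 0.25 with that of Dox over SB. These points share 3 libraries, and both correlations are descriptions only. The part of GC content in the changes was not tested.

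The files give rpm, the reads of a miRNA scaled to 1000000 reads, normalised by the authors to the total reads of each library. Values were whole multiples of 1 read, which stood for 0.0913 rpm in Control, 0.0881 rpm in SB and 0.101 rpm in Dox, so the reads behind each value are known. The listed miRNAs took 28.3% of the reads in Control, 24.1% in SB and 33.4% in Dox. There was 1 library per condition. Intervals in the text are 95% exact intervals (Poisson for levels, Clopper-Pearson for shares and ratios), and they cover counting error only. A list of 19 ES cell miRNAs (the miR-290~295 and miR-302~367 clusters) summed to 81839, 65183 and 93791 rpm in Control, SB and Dox, with none at 0. Much of each sum was miR-290-5p, with 35638, 18094 and 37406 rpm. By the criteria given below the list was split. In SB over Control 5 were higher and 5 lower, and in Dox over SB 8 were higher and 8 lower. A list of 15 miRNAs known from fibroblasts, likewise with none at 0, summed to 9245, 16567 and 7759 rpm, and 13 of them were higher in SB than in Control and 13 lower in Dox than in SB by the criteria given below. Most of the fibroblast list thus changed in the direction opposite to that of the called miRNAs of Rian, and its part in their changes was not tested. In bulk RNA a smaller share of expressing cells and less of a miRNA per cell cannot be told apart.

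miR-341-3p was by far the most abundant of the 5. It had 1290 rpm (1269 to 1311) in Control, 793 rpm (776 to 809) in SB and 1131 rpm (1110 to 1152) in Dox, from 14130, 9000 and 11191 reads. The SB level was the lowest and the Dox level lay between the others, with no overlap of the intervals. In the order of abundance among all listed miRNAs it was number 44 in Control, 57 in SB and 51 in Dox.

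Its partner strand, miR-341-5p, was far less abundant. It had 2.74 rpm (1.85 to 3.91) in Control, 1.85 rpm (1.14 to 2.83) in SB and 3.03 rpm (2.05 to 4.33) in Dox, or 30, 21 and 30 reads. All 3 intervals overlapped.

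miR-1188-5p, from the neighbouring hairpin in the same intron, had 6.75 rpm (5.30 to 8.48) in Control, 2.47 rpm (1.64 to 3.56) in SB and 10.5 rpm (8.59 to 12.7) in Dox. These were 74, 28 and 104 reads. The SB level was the lowest and the Dox level the highest, and the intervals of the libraries did not overlap.

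miR-370-3p had 16.2 rpm (13.9 to 18.7) in Control, 8.19 rpm (6.61 to 10.0) in SB and 19.3 rpm (16.7 to 22.2) in Dox, from 177, 93 and 191 reads. The SB level lay below both others, whose intervals overlapped. miR-370-5p had 8.49 rpm (6.85 to 10.4) in Control, 6.08 rpm (4.73 to 7.69) in SB and 6.27 rpm (4.80 to 8.03) in Dox, from 93, 69 and 62 reads, and these intervals overlapped.

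**Figure D1:**
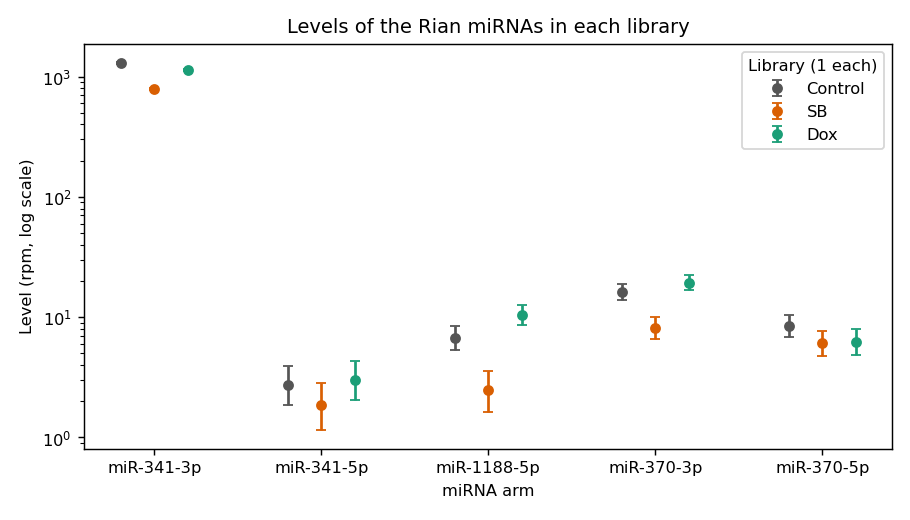
Level of each listed arm (rpm, log scale) in the Control, SB and Dox libraries, 1 library each, with 95% Poisson intervals of the reads as bars. miR-341-3p lies near 1000 rpm in every library and the other 4 arms lie between 1.85 and 19.3 rpm.

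The order of the levels was nearly the same in the libraries. miR-341-3p stood first and miR-370-3p second everywhere, and miR-341-5p stood last. miR-370-5p stood above miR-1188-5p in Control and SB and below it in Dox. In Control these neighbours did not differ beyond counting error (ratio of miR-370-5p to miR-1188-5p 1.26, 0.916 to 1.73). In SB the ratio was 2.46 (1.57 to 3.97), whereas in Dox miR-1188-5p had 1.68 times (1.21 to 2.34) the level of miR-370-5p. In SB miR-370-3p and miR-370-5p did not differ beyond counting error (1.35, 0.977 to 1.87), nor did miR-1188-5p and miR-341-5p (1.33, 0.730 to 2.47). Although their hairpins are 226 bases apart, miR-341-3p had 191 times (152 to 243) the reads of miR-1188-5p in Control, 321 times (222 to 484) in SB and 108 times (88.7 to 132) in Dox. Adaptor ligation differs between miRNA sequences, so such ratios within a library are ratios of reads and not of molecules, while their change between libraries is not touched by the scaling of the libraries.

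The first comparison, SB over Control, asks which miRNAs were lower once Smad2/3 signaling was blocked. All 5 arms had lower levels in SB. The study's criteria were a ratio of 5 to 4 or more in either direction and a Z-score in the outer 5% of the normal distribution, both tails together. The Z-score sets the reads of one library against those of another, which says nothing about spread within a condition. By these criteria 4 of the 5 fell, namely miR-341-3p, miR-1188-5p, miR-370-3p and miR-370-5p, and 0 of the 5 rose. Of all listed miRNAs 30.2% were lower in SB and 15.3% higher. The largest fall was that of miR-1188-5p, with a log2 ratio of −1.45 (−2.14 to −0.81), 2.74-fold lower, and 4.04% of the listed miRNAs had a lower ratio. miR-370-3p fell 1.97-fold, with a log2 ratio of −0.98 (−1.36 to −0.61) and a Z-score of −5.41. The abundant miR-341-3p fell 1.63-fold, with a log2 ratio of −0.70 (−0.74 to −0.66) and a Z-score of −36.5. miR-370-5p was near the Z-score threshold, at −2.11, and its log2 ratio was −0.48 (−0.95 to −0.02). Its call was lost under each scaling of the libraries tried other than that to miR-26a-5p. For miR-341-5p the log2 ratio was −0.57 (−1.44 to 0.29), from 21 reads in SB, and the Z-score was −1.39. It met the criteria with the libraries scaled to miR-26a-5p, the control miRNA of the study, where the log2 ratio was −0.81 and the Z-score −1.997, and under none of the other 4 scalings tried. The median of the 5 was −0.70, beside −0.19 over all listed miRNAs.

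The second comparison, Dox over SB, asks which miRNAs were higher once the receptor was induced. By the same criteria 3 of the 5 rose, miR-341-3p, miR-1188-5p and miR-370-3p, and 0 were lower, beside 41.7% of all listed miRNAs higher and 17.9% lower. These 3 also fell in SB, and 20.9% of all listed miRNAs had both calls. The comparisons share the SB library, so a low value there lowers one ratio and raises the other. miR-1188-5p rose 4.26-fold, with a log2 ratio of 2.09 (1.48 to 2.75), and 95.4% of the listed miRNAs had a lower ratio. miR-370-3p rose 2.36-fold, with a log2 ratio of 1.24 (0.87 to 1.61). miR-341-3p rose 1.43-fold, with a log2 ratio of 0.51 (0.47 to 0.55), close to the median of 0.38 over all listed miRNAs. Its rise of 0.51 became 0.04 when the reads on listed miRNAs served as the library size, 0.13 with median-of-ratios or TMM factors and 0.23 with quantile normalization, and its call was lost in each. With scaling to miR-26a-5p the rise was 0.45 and the call was kept. The medians over all listed miRNAs moved with these scalings too, in the first of them from −0.19 to 0.04 for SB over Control and from 0.38 to −0.09 for Dox over SB. In that scaling the Dox over SB ratio of miR-1188-5p was 1.62 and that of miR-370-3p 0.77, and both kept their calls under all 5 scalings tried. miR-370-5p had a log2 ratio of 0.04 (−0.47 to 0.56), which was below 0 under every scaling tried. miR-341-5p had 0.71 (−0.14 to 1.59) and no call.

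**Figure D2:**
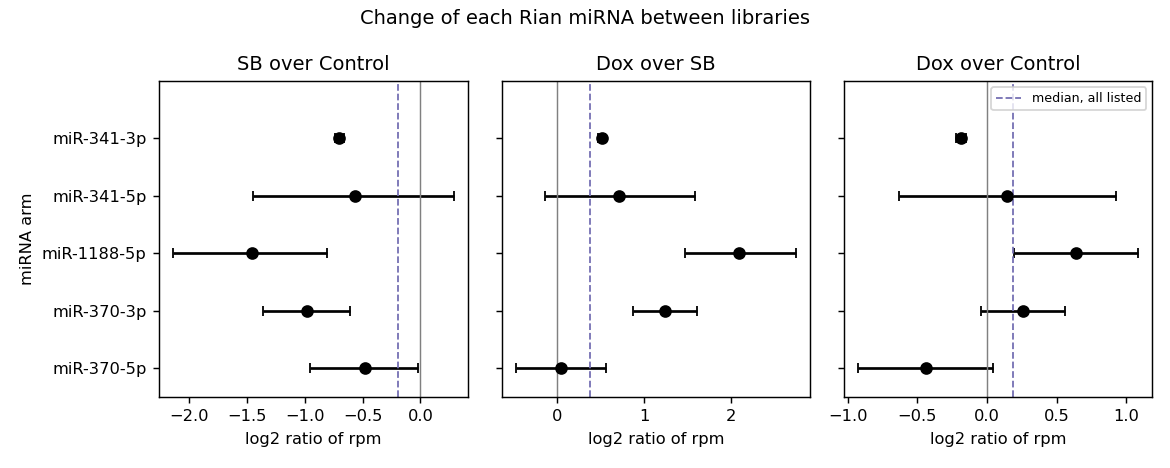
log2 ratios of rpm for each listed arm in the 3 comparisons, with 95% exact intervals of the reads as bars, a grey line at 0 and a dashed line at the median of all 693 listed miRNAs. miR-1188-5p lies farthest from the median in each of the first 2 comparisons, at −1.45 and 2.09.

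Against Control, the Dox library tells whether the levels of untreated cells were reached again. By the criteria and in the authors' scaling, miR-1188-5p alone of the 5 was higher in Dox, and 0 of the 5 were lower, beside 30.6% of all listed miRNAs higher and 19.8% lower. Its level was 1.56-fold that of Control, with a log2 ratio of 0.64 (0.19 to 1.09). This call was lost with the libraries scaled to reads on listed miRNAs or to miR-26a-5p. miR-341-3p stayed below its Control level, with a log2 ratio of −0.19 (−0.23 to −0.15), short of the fold threshold. This depended on the scaling. The log2 ratio was −0.43 with the libraries scaled to reads on listed miRNAs, −0.39 with median-of-ratios factors, −0.37 with TMM factors and −0.49 with scaling to miR-26a-5p, and miR-341-3p met the criteria as lower in Dox in each of these 4. With quantile normalization it was −0.32 and missed the fold threshold. miR-370-5p had a log2 ratio of −0.44 (−0.93 to 0.04) and a Z-score of −1.86, which missed the threshold. It met the criteria as lower in Dox under all 5 other scalings, with log2 ratios from −0.74 with scaling to miR-26a-5p to −0.51 with quantile normalization. The other log2 ratios were 0.26 (−0.05 to 0.56) for miR-370-3p and 0.15 (−0.63 to 0.93) for miR-341-5p, and with scaling to miR-26a-5p they were −0.04 and −0.15. Over all listed miRNAs the median ratio was 0.19 in the authors' scaling and between −0.11 and 0.01 in the other 5.

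The members differed from each other in how much they changed. Differences between 2 members in a log2 ratio do not depend on the scaling of the libraries by a factor. Of the 10 pairs, 2 had an interval of the difference without 0 in SB over Control, 6 in Dox over SB and 4 in Dox over Control. These intervals were not adjusted for the number of pairs, and the pairs reuse the same 5 arms. The share of such pairs among all listed miRNAs was not computed, so the counts do not set the members apart from other miRNAs. miR-1188-5p took part in both of the pairs in the first comparison. For miR-341-3p minus miR-1188-5p the difference in SB over Control was 0.75 (0.10 to 1.43), and for miR-1188-5p minus miR-370-5p it was −0.97 (−1.80 to −0.16). In Dox over SB its log2 ratio was the higher in all 4 of its pairs. The excess over miR-370-3p was 0.85 (0.12 to 1.61) and that over miR-370-5p 2.05 (1.22 to 2.88), and the log2 ratio of miR-341-3p minus that of miR-1188-5p was −1.58 (−2.24 to −0.96). For miR-341-3p minus miR-370-3p the difference was −0.72 (−1.10 to −0.36) in Dox over SB and −0.45 (−0.75 to −0.14) in Dox over Control. The 2 arms of miR-341 did not differ beyond counting error in any comparison, with intervals of −0.99 to 0.74, −1.08 to 0.65 and −1.12 to 0.44.

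The split of reads between the arms of miR-370 differed between libraries. The 3p arm held 65.6% (59.6 to 71.2) of the 270 reads of the hairpin in Control, 57.4% (49.4 to 65.1) of 162 in SB and 75.5% (69.7 to 80.7) of 253 in Dox. The Dox share lay above the SB share with no overlap of the intervals. The log2 ratio of the 3p to the 5p arm was higher in Dox than in SB by 1.19 (0.55 to 1.83) and higher in Dox than in Control by 0.69 (0.12 to 1.27). Between SB and Control it differed by −0.50 (−1.10 to 0.11). Such shifts were common: among the 95 hairpins whose arms both had at least 50 reads in each library, the median size of the change between SB and Dox was 0.62, and 26 hairpins, miR-370 counted among them here and in the next counts, shifted by at least its size in either direction, 13 of them towards the 3p arm. Between Control and Dox the median size was 0.65, close to the 0.69 of miR-370, and 46 hairpins shifted by at least as much in either direction, 22 of them towards the 3p arm. The reads of miR-341 fell almost wholly on the 3p arm, which held 99.79% of the reads in Control (99.70 to 99.86), 99.77% in SB (99.64 to 99.86) and 99.73% in Dox (99.62 to 99.82). A share so near its limit shows little of a change. The ratio of the arms was 471 in Control, 429 in SB and 373 in Dox, from 21 to 30 reads of the 5p arm, and the wide intervals of its change, given above, all hold 0.

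**Figure D3:**
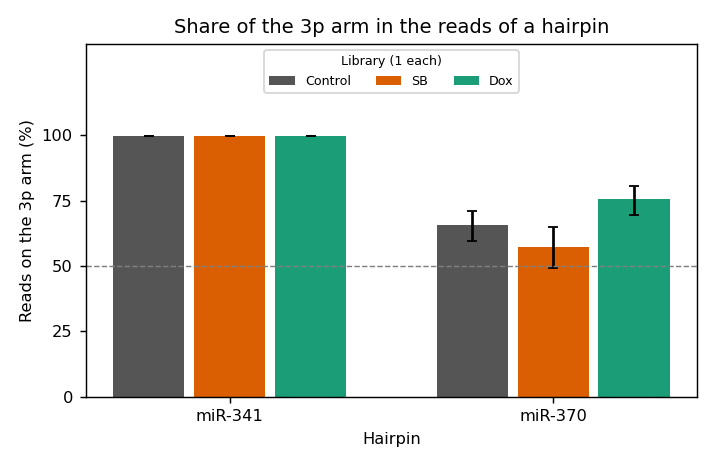
Share of the reads of a hairpin that fell on its 3p arm (%), for miR-341 and miR-370 in the 3 libraries (1 each), with 95% Clopper-Pearson intervals as bars and a dashed line at equal use. miR-341 stays above 99% in each library, and miR-370 runs from 57.4% in SB to 75.5% in Dox.

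miR-1188 was counted from its 5p arm alone. miR-1188-3p was not listed, and as the authors kept only miRNAs with 10 reads or more in all, it may have had reads below that minimum.

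Together the 5 arms had 1324 rpm in Control, 811 rpm in SB and 1170 rpm in Dox, and miR-341-3p made up between 96.7% and 97.7% of their reads. Of the reads on listed miRNAs they took 0.468% (0.460 to 0.475) in Control, 0.336% (0.329 to 0.343) in SB and 0.351% (0.344 to 0.357) in Dox. By this measure, free of reads outside the listed miRNAs, the share in Dox lay just above that in SB and well below that in Control. Within the 72 listed miRNAs of that predicted primary transcript the share of the 5 was 5.20% (5.12 to 5.28) in Control, 6.38% (6.26 to 6.51) in SB and 5.34% (5.25 to 5.44) in Dox. It was highest in SB. miR-341-3p was the sixth most abundant of the 72 in Control and Dox and the fifth in SB.

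The rest of that predicted transcript, as far as it could be placed, lies at least 97.6 kb downstream of the miR-341 hairpin and includes miRNAs within Mirg such as miR-485. Positions were found for 64 of the 72 listed miRNAs of the transcript, members included. Of its 67 listed miRNAs, 47 were lower in SB than in Control and 1 was higher, 37 were higher in Dox than in SB and 8 were lower, and 31 had both calls. The medians were −0.66 and 0.50, beside −0.70 and 0.71 for the 5 arms in Rian. In Dox over Control 26 of the 67 were lower and 9 higher. The median there was −0.23, beside 0.15 for the 5 arms. The lowest ratio of SB over Control (−2.29) and the highest of Dox over SB (2.41) both belonged to miR-485-3p, and miR-495-5p had the lowest of Dox over SB at −1.18. The largest ratio of SB over Control, 1.76, was that of miR-668-5p, from 6 reads in Control and 21 in SB. miR-1193-3p, which shares its seed with miR-370-5p, had 40, 40 and 73 reads in Control, SB and Dox and log2 ratios of −0.05 and 1.07. It rose in Dox over SB by the criteria, whereas miR-370-5p had 0.04.

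**Figure D4:**
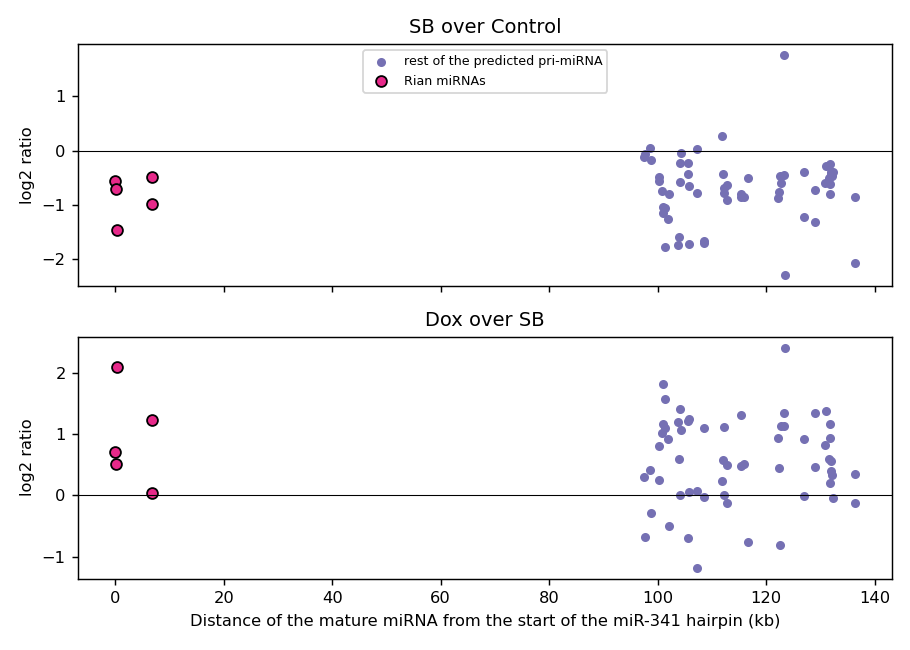
log2 ratios of SB over Control (top) and Dox over SB (bottom) against the distance in kb from the start of the miR-341 hairpin, for the 64 miRNAs of the predicted transcript that could be placed, with the 5 arms in Rian as outlined points. The 5 arms spread from 0.04 to 2.09 in the lower panel within 7 kb, inside the range of the group that starts at 97.6 kb.

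Upstream of Rian, 5 of the 10 miRNAs antisense to Rtl1 were lower in SB than in Control and 6 were higher in Dox than in SB, with medians of −0.38 and 0.63. None was higher in SB, 1 was lower in Dox over SB and 3 had both calls. Over all listed miRNAs 30.2% were lower in SB, 41.7% higher in Dox over SB and 20.9% had both calls. miR-433-3p had both the lowest ratio of SB over Control there, −1.35, and the highest of Dox over SB, 0.97, while miR-431-5p had −0.04 and −1.14. On the Meg3 side 7 of 12 were lower in SB and 6 were higher in Dox over SB, with medians of −0.58 and 0.66. None was higher in SB, 1 was lower in Dox over SB and 5 had both calls. miR-770-5p had the lowest ratio of SB over Control there, −1.43, and miR-493-5p the highest of Dox over SB, 1.72, whereas miR-337-3p stood at the other end of both, with 0.29 and −0.61.

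**Figure D5:**
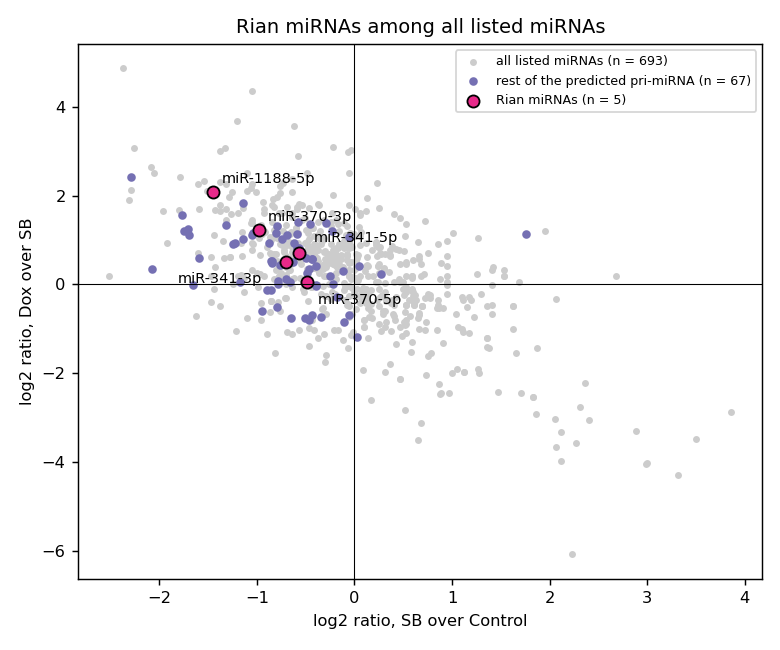
log2 ratio of Dox over SB against that of SB over Control for all 693 listed miRNAs (grey), the 67 other miRNAs of the predicted transcript (purple) and the 5 arms in Rian (pink, named). All 5 have a ratio below 0 on the horizontal axis and above 0 on the vertical one, with miR-370-5p at the horizontal line.

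Likeness to other miRNAs was measured by the Euclidean distance between the pairs of log2 ratios (SB over Control and Dox over SB, hence over 3 libraries), among 467 miRNAs with at least 20 reads in every library. miR-341-3p lay nearest to miR-452-5p, at 0.025, and miR-224-5p, at 0.041. miR-370-3p lay nearest to miR-302a-5p (0.052) and miR-17-3p (0.086). miR-341-5p had miR-429-3p (0.040) and miR-183-3p (0.048) next to it, and miR-370-5p had miR-466f-3p (0.042) and miR-665-5p (0.042), the last a miRNA of the Meg3 side. The nearest to miR-1188-5p were farther off, with miR-129-5p at 0.205 and miR-181d-5p at 0.224. The intervals of each member's own ratios are wider than these distances, so which miRNA lies nearest is not settled by these reads.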

How the data were processed

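Small RNA was sequenced from TAG1 cells in 3 conditions with 1 library each, and 2 sequencing runs were pooled per library. According to the methods, the authors clipped adaptors, selected reads of more than 16 bases and mapped them without mismatches, using Bowtie 0.12.7 (named in the submitters' processing notes too), to mature and then hairpin sequences of miRBase release 18. Reads matching several miRNAs went to the one of nearest length or to each. The deposited values are rpm, read numbers that the authors divided by the library total and multiplied by 1000000, for miRNAs with 10 reads or more in all.

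Reads were recovered here as multiples of the value of 1 read (largest distance from a whole number 3.98e-05 reads over 2079 values), which gave totals of 10955686 reads for Control, 11354692 for SB and 9895513 for Dox. These differ from the totals that the study states, and the cause was not tested. Ratios are of rpm without a pseudocount. Calls follow the study's criteria on fold change and Z-score, the latter computed here from 2 proportions for all 693 miRNAs. No p-value for a condition can be had. Intervals of ratios are exact (binomial, or conditional for 2 ratios). Python 3.11.15, SciPy 1.17.1 and RNAfold 2.7.2 were used. The code for the calls was run on simulated reads that held counting error only, with no spread between cultures. Changed miRNAs were scored there only at more reads than most members had in SB. That run therefore checks the code and says nothing about how far the members' calls hold between cultures. Sequences and positions come from RefSeq (GRCm38.p6) and GENCODE M21 (GRCm38). Whether the RefSeq sequences equal those of miRBase release 18 was not checked. The RefSeq table matched 516 of 693 names, too few for GC content over all listed miRNAs.

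The members and lists were chosen with earlier results of these data known. Named miRNAs are the members, the extremes of each list of the imprinted region, miRNAs sharing a seed, and the 2 nearest neighbours of each member. miR-26a-5p, the control miRNA of the study, served for a scaling. Alternatives were 5 scalings, a pseudocount of 1 rpm, read minimums of 10 and 50 in every library, fold thresholds of 1.5 and 2, no Z-score, a Bonferroni Z-score and identical values counted once. Counts in the directions opposite to the study's profile were added to these after seeing the data.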

Additional observations from a re-analysis of the deposited data

How the results depend on the processing

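Of the 84 counts of members recomputed, 71 stayed within 1.5 times the count given in the report. These include counts that were 0 and stayed 0, and falls from 3 to 2. Members higher in Dox than in SB, and members with both calls, fell from 3 to 2 as miR-341-3p lost its call. This happened under every scaling tried other than that to miR-26a-5p, and at a fold threshold of 1.5. A fold threshold of 2 left 1 member lower in SB than in Control and 1 with both calls (miR-1188-5p in each), and 0 higher in Dox than in Control. The last count was also 0 with the libraries scaled to reads on listed miRNAs or to miR-26a-5p, with at least 50 reads in every library (where miR-1188-5p and miR-341-5p drop out) and with a Bonferroni Z-score. The counts in the opposite directions were added after seeing the data. In the report's setting 0 members were lower in Dox than in Control, but 2 were (miR-341-3p and miR-370-5p) with scaling to reads on listed miRNAs, median-of-ratios factors, TMM factors or miR-26a-5p, and 1 (miR-370-5p) with quantile normalization or without the Z-score. No alternative put a member higher in SB than in Control or lower in Dox than in SB. Over all listed miRNAs, a fold threshold of 2 gave 67 lower in SB than in Control (209 in the report's setting), 154 higher in Dox than in SB (289), 41 with both calls (145), 94 higher in Dox than in Control (212), 49 higher in SB than in Control (106) and 56 lower in Dox than in Control (137). Scaling to reads on listed miRNAs gave 163 higher in Dox than in SB and 79 with both calls, median-of-ratios factors 185 and 86, and TMM factors 184 and 83. In the same order of scalings, 218, 201 and 202 were lower in Dox than in SB (124), and 165 with the first and 161 with TMM factors were higher in SB than in Control. Scaling to miR-26a-5p gave 133 higher and 217 lower in Dox than in Control and 65 higher in SB than in Control. Without the Z-score 180 were higher in SB than in Control, with a Bonferroni Z-score 62 were, and 82 were then lower in Dox than in Control. A minimum of 50 reads left 82 lower in Dox than in SB and 67 higher in SB than in Control, and a fold threshold of 2 left 67 lower in Dox than in SB. Quantile normalization moved the members' share of the listed reads to 0.318% in SB and 0.378% in Dox, and a pseudocount of 1 rpm moved the 3p share of miR-341 in SB to 99.64%. No called log2 ratio of a member changed sign. The causes of these shifts were not tested. No paired analysis was possible because each condition had 1 library. Depth limits miR-341-5p and miR-1188-5p most, with 21 and 28 reads in SB.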
